A study of Danio rerio with 15 samples.

Results

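The tissue described here is the venous clot of zebrafish larvae, 3 h after a laser hit the vessel, a time that the submitters call the peak of thrombus formation, set against venous tissue with no injury. Its members are 6 of the 15 libraries of the study, chosen by their labels: 3 h libraries A, B and C and control libraries A, B and C. All larvae, controls included, carried Tg(flk1:eGFP; gata1:dsRed), in which the flk1 promoter marks endothelium green and the gata1 promoter marks erythroid cells red. In the injured group a laser damaged the endothelium behind the anal pore, and thrombus tissue at that site was taken 3 h later. The control group is the same kind of venous tissue without the laser. The groups taken 1, 6 and 12 h after injury, 3 libraries each, enter the fit and serve as a comparison at the end. In each case laser-capture microdissection took the tissue from 20 frozen sections of the trunk, each 20 µm thick. The labels give neither age nor the animals behind a library, so captures may share or pool larvae, and the p-values measure only how these libraries vary, which can be technical. A control sampled 3 h on is not among the groups, so time of day and handling cannot be told apart from injury.

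A clot forms when damaged endothelium exposes tissue factor, thrombin turns fibrinogen into fibrin, and thrombocytes, the nucleated counterparts of platelets in fish, gather with red cells in the mesh. Cells beside a wound switch on immediate early genes, whose products include the FOS, JUN and ATF subunits of the AP-1 transcription factor, and they send cytokine signals through JAK and STAT proteins that SOCS proteins then damp. Lysed red cells release haem, which haem oxygenase breaks down and whose iron ferritin stores. Metalloproteinases open the matrix and heat shock proteins hold damaged proteins in solution.

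Levels are FPKM, fragment numbers scaled to transcript length and library size, so they can be compared between genes. Differences are 3 h minus control on the log2(FPKM + 1) scale, with a standard error, from limma fitted to all 15 libraries, and each adjusted p is limma's, adjusted with Benjamini-Hochberg over all 13051 kept genes, with a threshold of 0.05. This scale understates the change of genes that are low, and where the control is listed at 0 throughout, the size depends on the 1 that was added. Human-style symbols often stand in for zebrafish names, and some sum more than 1 zebrafish gene ID.

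The 3 h libraries held 12531040 to 13393610 reads recovered from the FPKM and the control libraries 13440164 to 15651535. Muscle transcripts were abundant in both groups: summed FPKM of the sarcomere genes was 273908, 268104 and 208368 in control libraries A, B and C and 137944, 186447 and 215258 at 3 h. Haemoglobin was well represented, with hbae3, an embryonic alpha globin, at 522, 875 and 969 FPKM in the controls and 455, 207 and 1216 at 3 h. The defining endothelial gene kdrl, the fish flk1 receptor paralogue, was low, at 1.3, 1.33 and 7.2 FPKM in the controls and 2.87, 2.51 and 1.3 at 3 h, and the groups overlapped. The thrombocyte integrin itga2b reached at most 0.398 FPKM, the neutrophil lysozyme lyz 0.257 and the macrophage gene MPEG1 0.534 in the 6 libraries. Muscle and red cell transcripts thus stood far above those of endothelium in tissue labelled venous. 3 h library C stood apart from 3 h libraries A and B in markers of other tissues, as given with the marker lists. Control library C stood apart from control libraries A and B in the summed level of macrophage markers, but not in their mean level. For liver and gut markers it stood apart in the mean level, but not in the summed level. Both measures are given there too.

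At 3 h, 181 of 13051 genes, 1.39%, differed from the control (limma, adjusted p under 0.05). Of these, 109 were higher (0.835%) and 72 lower (0.552%), and over all kept genes the median log2 difference was -0.13. The split was 60.2% higher, and it was 65.3% with median ratio scaling and 68.2% with quantile normalization, where the median of all genes was -0.09 and -0.03. Every 3 h library was above every control library for 998 genes (7.65%) and below for 1516 (11.6%), called or not. The 15 highest and 15 lowest genes named below were taken only from genes without overlap, so their separation follows from that choice. Of all kept genes 43.8% had a positive difference. The gene lists below were chosen with earlier results of these data known. Their shares called and positive are therefore descriptions and no test of enrichment. The count of calls was 46, 59 and 103 when control A, B or C was left out, and 60, 109 and 209 when 3 h A, B or C was. A set of 30 genes, 22 higher and 8 lower, passed in each of these 6 fits, among them lepb, MMP9, tcap, SOCS3, FOSL1, HMOX1, hspb9, KPNA2 and CCNB1. A fit of only the 6 libraries compared, which takes its spread from them alone, called 23 genes higher and 7 lower. Of these, 29 were also called in the fit reported. Of the called genes chosen for naming, 26 kept their call in that smaller fit and 111 missed it.

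**Figure D1:**
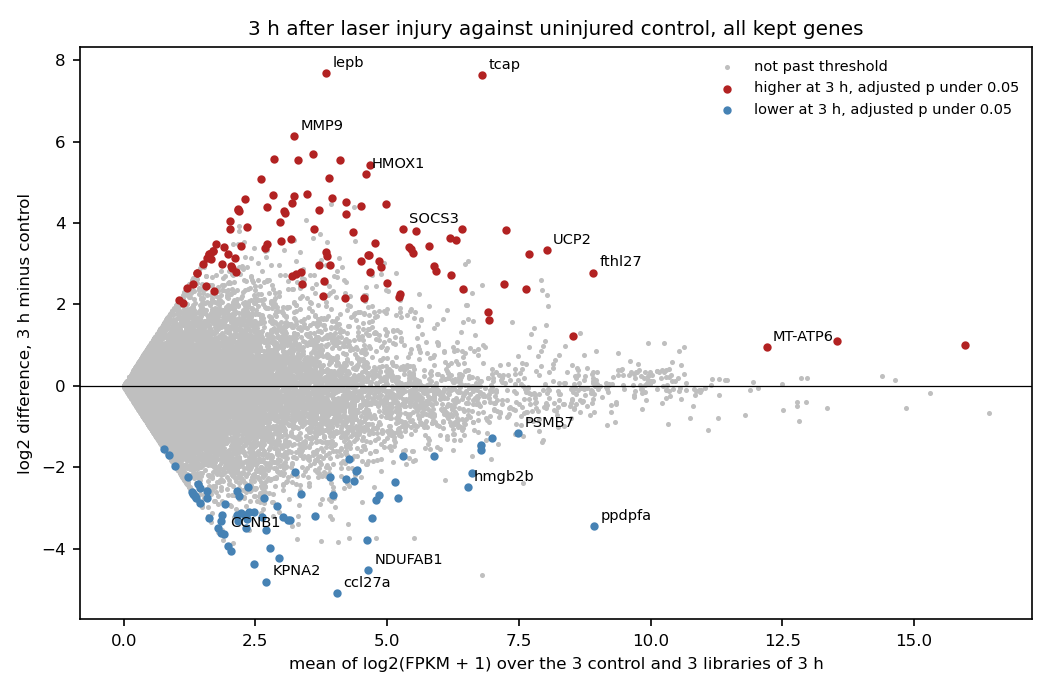
Each point is 1 of the 13051 kept genes, with its mean log2(FPKM + 1) over the 6 libraries on the x axis and the log2 difference, 3 h minus control, on the y axis. Red marks the 109 genes called higher, blue the 72 called lower, and lepb and tcap lie highest, at 7.68 and 7.63.

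The cytokine genes that rose were led by leptin. The hormone gene lepb, known in zebrafish for its induction in wounded and regenerating tissue, was listed at 0 in the 3 control libraries and stood at 228, 108 and 346 FPKM in 3 h libraries A, B and C (log2 difference 7.68 ± 0.99, adjusted p = 0.000724). It was also listed at 0 in the 3 libraries of 12 h. The second leptin gene, lepa, was at 0 in the controls and at 1.24, 14.6 and 13.7 FPKM at 3 h (adjusted p = 0.0422), with 3 h library A far below the other two. The neutrophil chemokine cxcl8b.1, a fish interleukin 8, went from 0, 0 and 6.25 FPKM to 42.1, 61.1 and 29.5 (log2 difference 4.49 ± 1.02, adjusted p = 0.0376). Every 3 h library was above every control library for all 3 genes. In the opposite direction, ccl27a, a chemokine of skin and other epithelia, fell from 238, 88.0 and 40.9 FPKM to 0, 12.16 and 0.739 (log2 difference -5.08 ± 0.93, adjusted p = 0.0118), and the groups did not overlap. In the list of cytokines, chemokines and leptin 29 genes were kept, with 3 higher, 1 lower and a median difference of 0.57 against -0.13 over all genes, which was 0.31 without 3 h A and 1.29 without control C. The share called was 13.8%, against 1.39% over all kept genes. The inflammatory cytokine il1b was at 5.87, 0.857 and 1.07 FPKM at 3 h and at 0 in the controls, with an adjusted p of 0.146, and tnfa and il6 were listed at 0 in all 6 libraries. Without control A, cxcl8b.1, lepa and ccl27a each missed the threshold. Without control B or 3 h B cxcl8b.1 and lepa did so, without control C lepa, without 3 h A cxcl8b.1 and ccl27a, and without 3 h C cxcl8b.1 and lepa.

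Of the SOCS genes, feedback inhibitors of cytokine signalling, SOCS3 and SOCS1 rose. SOCS3, which shuts off JAK kinases downstream of leptin and interleukin 6 receptors and sums 2 gene IDs, was at 7.89, 14.4 and 7.02 FPKM in the controls and at 202, 122 and 133 at 3 h (log2 difference 3.86 ± 0.44, adjusted p = 0.000223). SOCS1, which acts on interferon and interleukin 4 signalling, was at 0, 4.71 and 0.129 and then 112, 48.1 and 17.7 FPKM (adjusted p = 0.0432). The interleukin 4 receptor chain il4r.1 was at 0.191, 0 and 0 and then 28.5, 19.7 and 4.99 FPKM (adjusted p = 0.0225). All 3 genes separated the groups, with 3 h library A highest in each. Of 29 kept genes of the SOCS and JAK-STAT list, these 3 were called, all higher, and 22 had a positive difference, with a median of 0.59 (0.93 without 3 h library C). That was 10.3% called and 75.9% positive, against 1.39% and 43.8% over all kept genes. SOCS1 and il4r.1 passed only in the fits of all libraries and without 3 h library C, and without each other library they missed. Among 28 kept genes of the NF-kB and TNF list 0 passed in the limma fit reported, with 6 past an unadjusted threshold of 0.05. Voom on recovered reads called 1 higher. So did limma without 3 h C, with a replicate block, with array quality weights, and after quantile normalization or median ratio scaling. The list's median was 0.39 (0.08 without 3 h A, 0.68 without 3 h C and 0.89 with a pseudocount of 0.1). The inhibitor nfkbiaa, a target of NF-kB, was closest, at 6.25, 4.61 and 10.23 FPKM in the controls and 68.8, 37.9 and 33.8 at 3 h (unadjusted p = 0.00101, adjusted p = 0.0617). The itaconate-producing gene irg1l was at 78.4, 40.14 and 0.703 FPKM at 3 h (adjusted p = 0.104), near 0 in library C.

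Immediate early genes gave the most called members of any list. Of 30 kept, 9 were higher and 0 lower, 30% called against 1.39% over all kept genes, and the median difference was 1.27. FOSL1, the AP-1 subunit Fra-1, was at 0, 0.151 and 0 FPKM in the controls and 77.3, 28.3 and 52.0 at 3 h (log2 difference 5.56 ± 0.77, adjusted p = 0.00119). Its paralogue fosl1b was listed at 0 in every control library and at 5.42, 11.09 and 9.89 FPKM at 3 h (adjusted p = 0.0102), and FOSL2, the AP-1 subunit Fra-2, rose from 1.41, 1.67 and 4.05 to 61.0, 38.9 and 39.8 FPKM (log2 difference 3.87 ± 0.53). The stress factor ATF3, which pairs with JUN proteins, was at 1.8, 0 and 0 and then 68.7, 20.3 and 31.5 FPKM (log2 difference 4.69 ± 0.82, adjusted p = 0.0105). FOS itself went from 0, 3.68 and 0.481 FPKM in the controls to 35.9, 32.9 and 37.6 at 3 h (log2 difference 4.25 ± 0.84). In these 5 genes no control library reached any 3 h library. JUNB, summed over 2 IDs, rose by 3.36 ± 0.71, the zinc finger factor KLF6 by 2.17 ± 0.45, and the antiproliferative genes BTG2 and BTG1 by 3.52 ± 0.76 and 1.62 ± 0.34 (adjusted p = 0.0243, 0.0235, 0.0272 and 0.0251). Across the list the mean level stood 1.81, 1.14 and 1.71 above the control mean in 3 h libraries A, B and C. The 9 calls became 4, 6 and 6 without control A, B and C; with 3 h A, B or C left out they were 3, 6 and 8. FOSL1, fosl1b and FOSL2 passed in all 6 of those fits. A fit of only the groups compared called 3 members of the list.

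Among growth arrest and p53 target genes 22 were kept, 2 higher and 1 lower (13.6% called, against 1.39% over all kept genes). GADD45B, a stress sensor of the GADD45 family that sums 2 IDs, rose from 19.4, 25.8 and 16.8 to 239, 118 and 152 FPKM (log2 difference 2.94 ± 0.51, adjusted p = 0.0098) and passed without each library in turn. The BH3-only cell death gene pmaip1, known as NOXA, rose from 13.2, 7.69 and 2.92 to 93.6, 57.6 and 49.5 FPKM (adjusted p = 0.0256). By contrast cdkn1a, which encodes the cell cycle inhibitor p21, fell from 30.1, 49.0 and 22.5 to 0, 4.57 and 0 FPKM (log2 difference -4.23 ± 0.88, adjusted p = 0.0229). The 2 p53 targets pmaip1 and cdkn1a thus moved in opposite directions, each with its groups apart. Without control B or C or without 3 h A, both pmaip1 and cdkn1a missed the threshold; pmaip1 also missed it without 3 h B and cdkn1a without control A or 3 h C.

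Of the matrix protease genes 3 rose, and MMP9 was among the 15 largest rises. MMP9, gelatinase B, was at 0, 0.413 and 0 FPKM in the controls and 113, 88.3 and 46.5 at 3 h (log2 difference 6.13 ± 0.80, adjusted p = 0.000788), and it passed without each library in turn. The collagenase mmp13a was at 1.01, 0.189 and 0.219 and then 40.9, 49.7 and 11.8 FPKM (adjusted p = 0.0182), and the membrane protease adam8b at 0, 1.13 and 0 and then 16.8, 5.16 and 8.91 (adjusted p = 0.0484). For all 3 the groups did not overlap. These were the called members of 18 kept metalloproteinases and inhibitors, with 0 lower and a median of 0.67 that was 0.21 without 3 h A and 1.1 without 3 h C. They made up 16.7% of that list, against 1.39% called over all kept genes. Without any 1 of the 6 libraries adam8b missed the threshold, and mmp13a missed it without any but 3 h C. The 3 genes are also members of the neutrophil marker list, of which 5 of 22 kept genes were higher and 0 lower (22.7% called, median 1.31). The other 2 were ARG2, a mitochondrial arginase, at 6.87, 6.37 and 37.4 and then 188, 151 and 90.04 FPKM, and nccrp1, a receptor-like gene named from cytotoxic cells, at 5.5, 8.37 and 7.92 and then 180.1, 64.1 and 35.2 FPKM (adjusted p = 0.0292 and 0.0384). ARG2 missed the threshold without control A or B or 3 h A or B, and nccrp1 without any library but 3 h C. The neutrophil and metalloproteinase lists each had 1 call in a fit of only the groups compared. Of the defining neutrophil genes, lyz was at or under 0.257 FPKM in the 6 libraries. The peroxidase gene EPX, whose symbol is that of the eosinophil enzyme, was at 8.5, 4.63 and 2.6 FPKM in the controls and 2.42, 2.72 and 2.43 at 3 h (adjusted p = 0.71).

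Genes that make or dissolve fibrin fall in small lists, and that of serine protease inhibitors also holds genes outside the fibrin system. The share called was 0% of 9 coagulation factors, 8.70% of 23 plasminogen and annexin genes and 25% of 12 serine protease inhibitors. It was 1.39% over all kept genes, and a difference between these lists was not tested. Of 9 kept coagulation factors 0 were called by voom or the limma fit reported, and 1 with a replicate block. An unadjusted p under 0.05 was found for 3. The tissue factor gene f3b, the trigger of clotting, averaged 1.61 ± 0.974 FPKM in the controls and 20.4 ± 10.9 at 3 h (SD, n = 3 each; log2 difference 2.96 ± 0.95, unadjusted p = 0.00609, adjusted p = 0.147), and f5, a cofactor of prothrombin cleavage, was at 0.0102, 0.278 and 0 and then 0.541, 2.81 and 2.23 FPKM (adjusted p = 0.187). Both had every 3 h library above the controls. The fibrinogen genes fga, FGB and FGG were listed at 0 in all 6 libraries. ANXA2, annexin A2, a cell surface receptor for plasminogen and its activator, rose from 19.3, 21.1 and 25.3 to 476, 482 and 88.0 FPKM (log2 difference 3.59 ± 0.68, adjusted p = 0.0155), and library C was far below A and B. Of 23 kept plasminogen and annexin genes 2 were higher and 0 lower. Among 12 kept serine protease inhibitors 2 were higher and 1 lower: serpinb14, of the intracellular clade B, was at 0, 2.36 and 2.12 and then 104, 60.2 and 28.2 FPKM (log2 difference 4.71 ± 0.90, adjusted p = 0.0155), while serpinf1, which encodes the antiangiogenic factor PEDF, fell from 32.6, 32.1 and 54.3 to 1.51, 11.5 and 6.52 FPKM (adjusted p = 0.0375). Without control A or 3 h A, ANXA2, serpinb14 and serpinf1 all missed the threshold. ANXA2 also missed it without control B or 3 h B, and serpinf1 without control B, control C or 3 h C. The epidermis marker list, with mean levels of 1.27, 0.85 and -0.96 above the control mean in 3 h A, B and C, was lowest in the same library, C, as ANXA2 and serpinb14, and its part in their rise was not tested.

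Of 50 kept genes that handle haem, iron and oxidants 5 rose, in a list whose median was near 0. HMOX1, the enzyme that breaks haem into biliverdin, iron and carbon monoxide, was at 1.17, 3.6 and 5.27 FPKM in the controls and 290.2, 132 and 80.0 at 3 h (log2 difference 5.2 ± 0.59, adjusted p = 0.000189). The ferritin heavy chain-like gene fthl31 rose from 17.8, 6.32 and 1.18 to 207, 115 and 131 FPKM (log2 difference 4.46 ± 0.80, adjusted p = 0.0118), and fthl27, already abundant, from 168, 218 and 167 to 2313, 1058 and 827 (log2 difference 2.78 ± 0.54, adjusted p = 0.0182). The groups were apart for all 3 and library A was highest. The peroxidase prdx1 was at 0.79, 7.76 and 5.18 and then 72.7, 50.3 and 23.0 FPKM (adjusted p = 0.0118), and the glutathione transferase gsto2 at 29.2, 28.7 and 12.14 and then 261, 192 and 80.7 (adjusted p = 0.0144). The 5 genes were the called members, 0 were lower, the median was 0.09, and 26 were positive. This made 10% called and 52% positive, against 1.39% and 43.8% over all kept genes. The list's median turned to -0.01 with a pseudocount of 0.1 or with voom and to -0.06 without 3 h library A. The 5 calls became 3, 4 and 3 without control A, B and C; with 3 h A, B or C left out they were 1, 4 and 7. Only HMOX1 passed in all 6. A fit of only the groups compared called 1 member of the list.

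**Figure D2:**
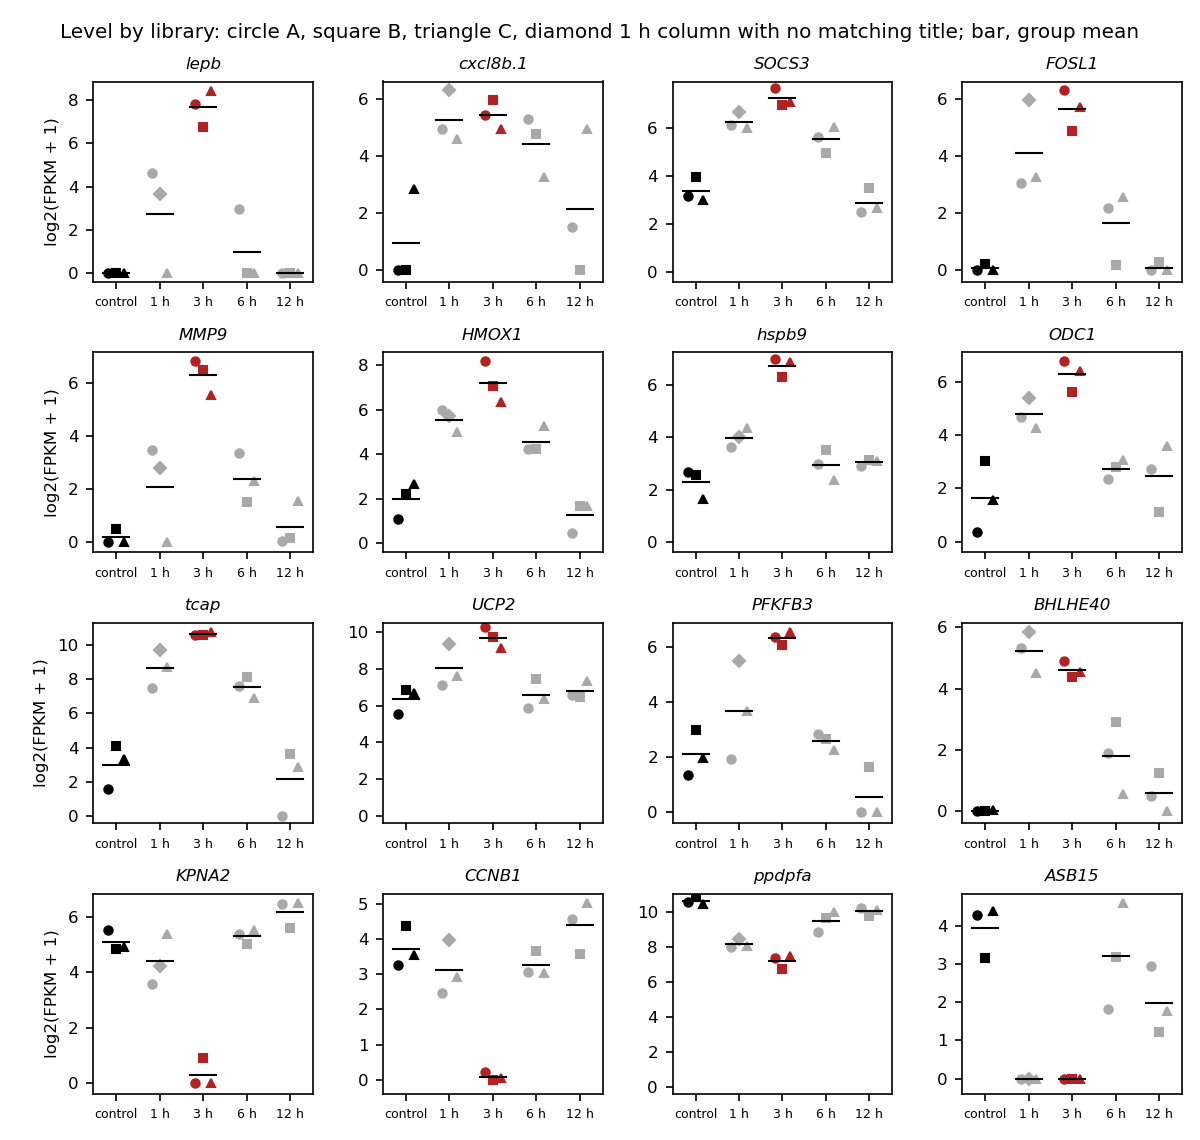
The y axis gives log2(FPKM + 1) in each of the 15 libraries for 16 genes, and the x axis the group; 3 h is red, control black, other times grey, and bars are group means. In 12 of the panels every 3 h library lies above every control library, and in the bottom row (KPNA2, CCNB1, ppdpfa and ASB15) every one lies below. Apart from SOCS3, hspb9, UCP2 and PFKFB3, the genes shown are among the 15 highest or 15 lowest, a choice that required groups without overlap. Over all kept genes 7.65% lay above and 11.6% below.

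Of the cytosolic heat shock genes 4 rose. hspb9, a small heat shock protein, was at 5.42, 4.87 and 2.14 FPKM in the controls and 125, 77.0 and 115 at 3 h (log2 difference 4.41 ± 0.47, adjusted p = 0.000115), and it passed without each library. hspb6, another small heat shock protein, known from muscle, rose from 3.57, 14.97 and 12.3 to 79.8, 82.4 and 82.7 FPKM (adjusted p = 0.02) with 3 h values that lay close together. The inducible chaperones hsp70l and hsp70.3 had control levels of 0, 1.17 and 0.0323 FPKM and of 0 throughout, and rose to 22.8, 37.4 and 7.1 and to 64.5, 21.2 and 4.84 (adjusted p = 0.0225 and 0.0302). Of 37 kept genes 4 were higher and 0 lower (median 0.47, which was 0.16 without 3 h A and 0.72 without 3 h C). The share called was 10.8%, against 1.39% over all kept genes. When control A, B or C was left out the list had 1, 2 and 2 calls, and when 3 h A, B or C was it had 1, 1 and 6, the last with members not called in the fit of all libraries. Chaperones of the endoplasmic reticulum gave 0 calls among 30 kept genes in limma or voom, with 2 at an unadjusted p under 0.05 (median -0.18, 0.05 without 3 h library C).

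Of 37 kept genes of amino acid and polyamine handling and the integrated stress response 5 rose and 1 fell, among them an enzyme and genes of its inhibitors. ODC1, ornithine decarboxylase, which makes the first polyamine, was at 0.278, 7.09 and 1.99 FPKM in the controls and 109, 48.2 and 84.2 at 3 h (log2 difference 4.62 ± 0.70, adjusted p = 0.00311). The antizyme genes, whose products bind and degrade ornithine decarboxylase, were higher too: oaz2b went from 0.113, 1.6 and 3.27 to 27.13, 27.6 and 23.8 FPKM (log2 difference 3.55 ± 0.77, adjusted p = 0.0292) and OAZ1 from 209, 249.8 and 259.7 to 714, 488 and 515 (log2 difference 1.24 ± 0.29, adjusted p = 0.0427). The arginine and lysine carrier SLC7A3, summed over 2 IDs, rose by 3.48 ± 0.70 and the glutamine carrier SLC1A5 by 2.75 ± 0.62 (adjusted p = 0.02 and 0.0375). The stress cofactor nupr1a fell from 225, 222 and 173 to 49.3, 43.8 and 43.9 FPKM (log2 difference -2.15 ± 0.42, adjusted p = 0.0192). In each of these 6 genes the groups were apart. In the whole list 19 differences were positive, with a median of 0.10 that was -0.04 without control library C and 0.45 without 3 h A. The list had 16.2% called and 51.4% positive, against 1.39% and 43.8% over all kept genes. A fit of only the groups compared called 0 members of the list higher and 1 lower. ODC1 passed without each library; OAZ1 missed the threshold without any 1 of the 6. The other 4 missed it without control A and without 3 h A. SLC1A5, oaz2b and nupr1a missed it also without control B or 3 h B, SLC1A5 and oaz2b without 3 h C, and SLC7A3 without control C.

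Of 44 kept genes of hypoxia and glycolysis, PFKFB3 and PDK2 rose, each with its groups apart. PFKFB3, which makes the activator of phosphofructokinase and so speeds glycolysis, was at 1.55, 6.94 and 2.89 FPKM in the controls and 81.1, 65.9 and 92.2 at 3 h (log2 difference 4.22 ± 0.75, adjusted p = 0.0115). PDK2, a kinase that shuts off pyruvate dehydrogenase and sums 2 IDs, went from 23.7, 34.3 and 76.8 to 536, 459 and 786 FPKM (log2 difference 3.83 ± 0.84, adjusted p = 0.0302). These were the 2 called genes of the list (0 lower); 25 of the 44 were positive, 12 had every 3 h library above the controls, and the median was 0.34 (0.55 without 3 h C). Over all kept genes 1.39% were called, 43.8% were positive and 7.65% had every 3 h library above the controls. The following genes of energy use were chosen after their values were seen. The mitochondrial carrier UCP2 rose from 45.9, 115 and 100.3 to 1223, 834 and 551 FPKM (log2 difference 3.33 ± 0.55, adjusted p = 0.00703), and its muscle relative ucp3 from 6.86, 31.3 and 43.9 to 355, 215 and 451 FPKM (log2 difference 3.86 ± 0.70). The alanine transaminase GPT rose by 2.17 ± 0.50 and tdh, threonine dehydrogenase, by 3.63 ± 0.73. UCP2 was the one gene of this group that passed without each library. PFKFB3 missed the threshold without control A, PDK2 without control A or B or any 3 h library, ucp3 without control A or 3 h A, tdh without control A or B or 3 h A or C, and GPT without any 1 of the 6.

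The glucocorticoid response list had the largest median, 1.85, with 24 of 26 kept genes positive (92.3%, against 43.8% over all kept genes). Its mean level stood 2.22, 1.57 and 1.49 above the control mean at 3 h, and control libraries A, B and C stood at -0.43, 0.05 and 0.38. Only 2 members passed (7.69%, against 1.39% over all kept genes), PDK2 and FOXO1. The latter is a transcription factor of fasting and stress summed over 2 IDs and rose from 4.35, 2.15 and 3.98 to 26.3, 28.5 and 18.4 FPKM (log2 difference 2.51 ± 0.47, adjusted p = 0.0144). The list had 4 calls with median ratio scaling, 5 each with quantile normalization, a replicate block or voom, 7 with array quality weights, and 0 without control B or 3 h A. In the circadian clock list, with 28 kept genes, 2 were higher and 1 lower (10.7% called). BHLHE40, a repressor that binds clock promoters and answers to many stresses, was at 0, 0 and 0.0265 FPKM in the controls and 28.7, 19.6 and 22.4 at 3 h (log2 difference 4.59 ± 0.63, adjusted p = 0.00118), and it passed without each library. The clock repressor PER3 was at 0.0834, 0.0522 and 0.0135 and then 6.51, 4.08 and 4.52 FPKM (adjusted p = 0.028), and nr1d4b, of the Rev-erb family of clock receptors, fell from 1.72, 7.28 and 11.14 FPKM to 0 in each 3 h library (adjusted p = 0.0225). Clock time and injury cannot be told apart here. Without control B, 3 h A or 3 h B, FOXO1, PER3 and nr1d4b each missed the threshold, and PER3 also did without control A or C and nr1d4b without control C.

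**Figure D3:**
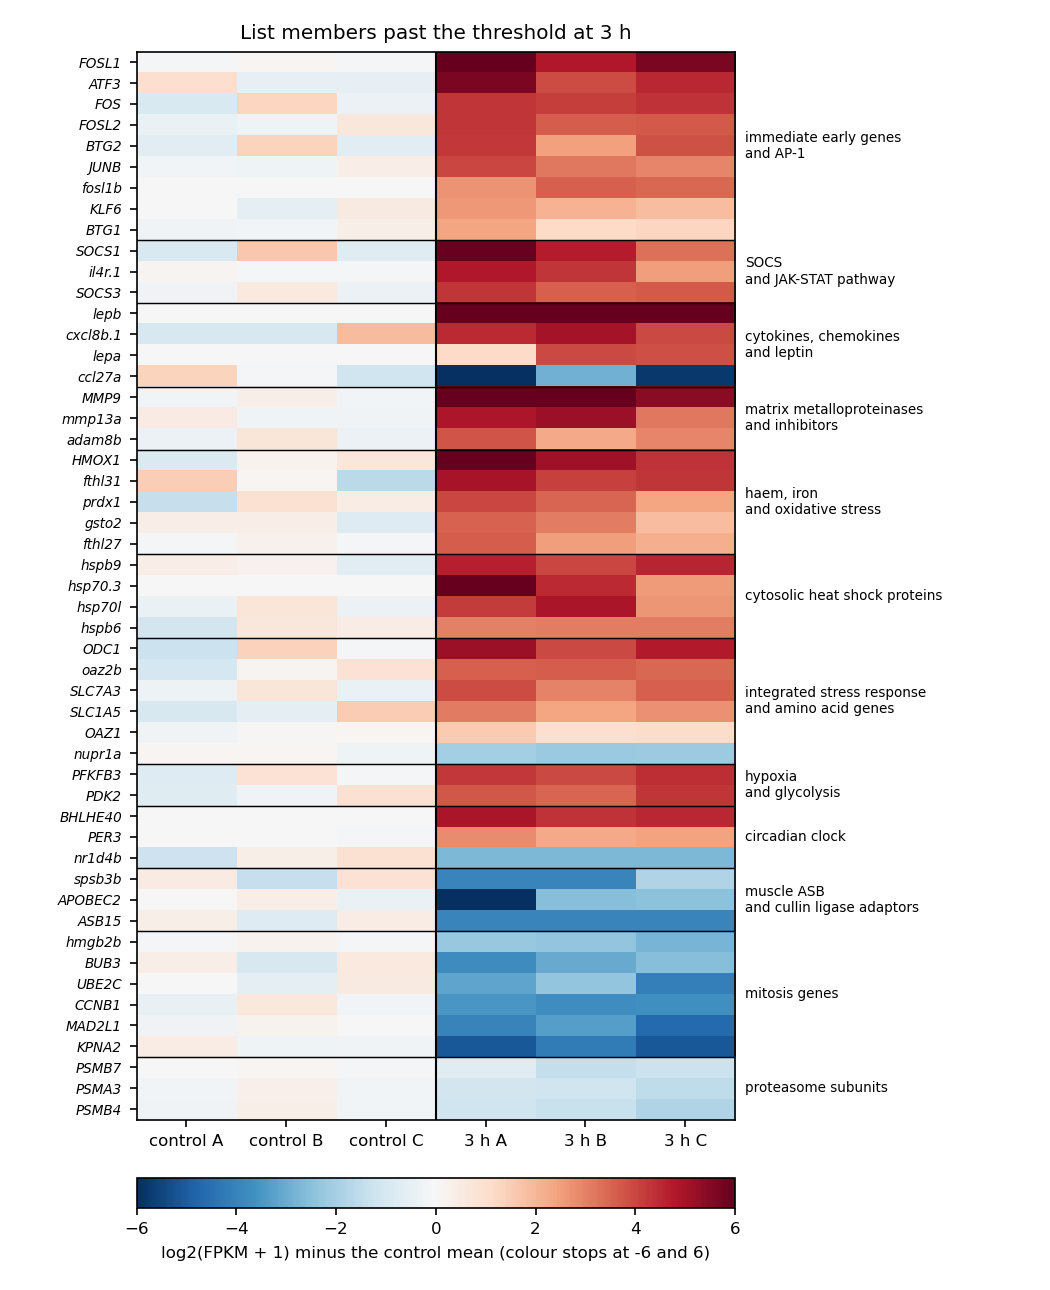
Colour gives log2(FPKM + 1) minus the control mean in the 6 libraries (columns) for called members of 12 lists (rows, each gene once, under the first list that holds it). Red rows from FOSL1 to PER3 are higher at 3 h in every library, with ccl27a, nupr1a and nr1d4b the blue exceptions. The rows of the muscle ASB, mitosis and proteasome lists are blue.

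Muscle genes split. tcap, telethonin, a titin cap protein of the Z-disc, had the second largest rise of all named genes, from 1.99, 16.0 and 8.94 FPKM in the controls to 1529, 1511 and 1696 at 3 h (log2 difference 7.63 ± 0.79, adjusted p = 0.000108). The 3 h values lay within a narrow span, and it passed without each library. The scaffold gene ahnak, known from membrane repair, rose from 3.58, 4.73 and 8.94 to 47.2, 35.6 and 13.9 FPKM (adjusted p = 0.0496), and missed the threshold without any library but 3 h C. These were the 2 called of 35 muscle stress and repair genes (5.71%, against 1.39% over all kept genes). The median of that list was -0.30 (-0.06 without control A). Of 55 kept sarcomere genes 0 were called by the limma fit reported, 11 had an unadjusted p under 0.05, and voom called 2 lower. Quantile normalization called 1 higher, and array quality weights 1 higher and 1 lower. The smallest p belonged to myoz3a, a Z-disc protein, at 0, 0.0616 and 1.09 FPKM in the controls and 4.74, 4.84 and 4.96 at 3 h, and to tpma, a tropomyosin, at 11382, 9658 and 8328 and then 4197, 5594 and 6551 (adjusted p = 0.0777 and 0.0792). The list's summed level, given above, overlapped between the groups.

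The list of ASB proteins and other ubiquitin ligase adaptors of muscle also holds APOBEC2, which is not such an adaptor. In this list 3 members fell. ASB15, an ankyrin repeat SOCS box protein summed over 2 IDs, was at 18.4, 7.9 and 19.9 FPKM in the controls and was listed at 0 in the 3 libraries of 3 h (log2 difference -3.94 ± 0.70, adjusted p = 0.0115). It was also listed at 0 in the 3 libraries of 1 h. APOBEC2, a muscle protein of the cytidine deaminase family, fell from 91.6, 119 and 67.7 to 0.111, 14.7 and 15.5 FPKM (adjusted p = 0.0194), and spsb3b, another SOCS box protein, from 21.2, 5.13 and 27.8 to 0, 0 and 3.46 (adjusted p = 0.0421). Of 33 kept genes of this list 3 were lower and 0 higher, 10 were positive, and the median was -1.06. This made 9.09% called and 30.3% positive, against 1.39% and 43.8% over all kept genes. The list's summed level did not overlap, with 604, 612 and 549 FPKM in the controls and 196, 204 and 189 at 3 h. The 3 calls became 0, 2 and 2 without control A, B and C; with 3 h A, B or C left out they were 2, 2 and 4. A fit of only the groups compared had 0 calls in the list. Among genes chosen after their values were seen, the muscle transcription cofactor vgll2b fell from 119.8, 107 and 65.8 to 10.1, 8.85 and 24.6 FPKM and the Z-disc protein synpo2b from 10.6, 15.1 and 16.1 to 0.561, 0.338 and 1.11 (adjusted p = 0.0225 and 0.0046). The groups were apart for both, and synpo2b passed without each library. vgll2b missed the threshold without control A or B or 3 h A or B.

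Mitosis genes gave more called falls than any other list. KPNA2, an importin alpha that carries proteins into the nucleus and peaks in dividing cells, was at 45.4, 28.1 and 29.0 FPKM in the controls and 0, 0.867 and 0 at 3 h (log2 difference -4.80 ± 0.51, adjusted p = 0.000115). CCNB1, the cyclin that starts mitosis, went from 8.57, 19.6 and 10.6 to 0.163, 0 and 0.0393 FPKM (log2 difference -3.63 ± 0.56, adjusted p = 0.00377). The spindle checkpoint genes MAD2L1 and BUB3 went from 22.3, 30.2 and 26.4 to 0.71, 1.74 and 0.0856 FPKM and from 16.8, 6.12 and 19.4 to 0, 0.7 and 1.31 (adjusted p = 0.0234 and 0.0115). UBE2C, the ubiquitin carrier of the anaphase-promoting complex, fell from 37.4, 24.2 and 54.4 to 3.26, 6.29 and 1.21 FPKM, and the chromatin protein hmgb2b from 201, 252 and 201 to 43.5, 41.0 and 30.9 (adjusted p = 0.0122 and 0.000788). In all 6 the lowest control library was above the highest 3 h library. Of 64 kept mitosis genes 6 were lower and 0 higher, 9 were positive, and the median was -0.76. That was 9.38% called and 14.1% positive, against 1.39% and 43.8% over all kept genes. The summed level of the mitosis list was 547, 611 and 495 FPKM in control libraries A, B and C and 114, 127 and 125 at 3 h. The 6 calls became 3, 5 and 4 without control A, B and C; with 3 h A, B or C left out they were 4, 6 and 7, and KPNA2, CCNB1 and hmgb2b were called each time. Among 56 kept DNA replication and histone genes 1 was lower, pclaf, a PCNA-binding factor, at 12.9, 23.6 and 11.2 and then 5.82, 0 and 0 FPKM (adjusted p = 0.0462). It passed only without 3 h A. The share called in that list was 1.79%, near the 1.39% over all kept genes. Its median was -0.68, against -0.13 over all kept genes, and 23.2% of its genes were positive, against 43.8%. In bulk tissue fewer dividing cells and less RNA per cell cannot be told apart.

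Of 45 kept proteasome subunits 3 fell. PSMB7 fell from 259, 293 and 249 to 159, 97.1 and 108 FPKM, PSMA3 from 173, 245 and 177 to 90.4, 85.3 and 68.1 and PSMB4 from 159, 231 and 163 to 77.8, 70.8 and 51.8; all belong to the catalytic core. Their log2 differences were -1.16 ± 0.28, -1.27 ± 0.28 and -1.45 ± 0.33 (adjusted p = 0.047, 0.0336 and 0.0394). In the list 0 were higher, 5 were positive, and the median was -0.97. The share called was 6.67%, against 1.39% over all kept genes, of which 43.8% were positive. Every 3 h library was below every control library for 24 list members and above for 1. Over all kept genes 11.6% lay below in this way and 7.65% above. The summed level was 2226, 2972 and 2297 FPKM in the controls and 1362, 1543 and 1031 at 3 h, with no overlap. None of the 3 calls was kept without control A, B or C or without 3 h C, 1 passed without 3 h A, and 2 list members passed without 3 h B. In fits without the 12 h libraries or of only the groups compared the list had 0 calls.

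All 13 mitochondrially encoded mRNAs had a positive difference (median 0.82), with 1 called, MT-ATP6, a subunit of ATP synthase, from 2847, 4126 and 3302 to 5949, 6559 and 7320.0 FPKM (log2 difference 0.96 ± 0.23, adjusted p = 0.0496). The list's summed level was 65510.3, 67046 and 70886 FPKM in the controls and 79952, 81313 and 90709.9 at 3 h, and the groups were apart. MT-ATP6 missed the threshold without any 1 of the 6 libraries, and the list had 0 calls with a replicate block, 3 without the 12 h libraries, 5 with array quality weights and 6 with voom. Of 77 kept nuclear respiratory chain genes 17 were positive, with 1 higher, 1 lower and a median of -0.21 that was -0.01 without 3 h A and -0.43 without 3 h C. That list had 2.60% called and 22.1% positive, against 1.39% and 43.8% over all kept genes. NDUFAB1, the mitochondrial acyl carrier protein, was at 110.5, 109.7 and 137 FPKM in the controls and 0.295, 63.1 and 0.664 at 3 h (log2 difference -4.53 ± 0.96, adjusted p = 0.0249), so 3 h library B lay far above A and C, and it missed the threshold without any library but 3 h B. The small ATP synthase subunit atp5meb rose from 25.8, 26.6 and 32.4 to 117, 172 and 339 FPKM (adjusted p = 0.0144), which it missed without control A or B. In mitochondrial import and assembly, 1 of 85 kept genes was higher and 0 lower, a share of 1.18% against 1.39% over all kept genes. The called gene PRELID3B, a lipid transfer protein between the mitochondrial membranes, was at 42.3, 89.5 and 74.6 and then 618, 594 and 691 FPKM (log2 difference 3.25 ± 0.38, adjusted p = 0.000223).

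Among cytoskeletal and matrix genes the share called was 5.77% of the actin and SRF list and 8.70% of the wound matrix list. It was 0% of collagens, against 1.39% over all kept genes. The actin-binding protein CNN2, calponin 2, rose from 13.7, 14.2 and 12.6 to 177, 179 and 84.5 FPKM (log2 difference 3.27 ± 0.42, adjusted p = 0.000724) and passed without each library. PLEK2, a pleckstrin relative that acts on actin, was at 0 in the controls and 42.0, 6.77 and 22.9 FPKM at 3 h (adjusted p = 0.0235), and CDC42EP3, an effector of the Cdc42 switch, fell from 80.8, 74.7 and 81.7 to 15.2, 16.8 and 12.09 (adjusted p = 0.0246). Of 52 kept genes of the actin and SRF list 2 were higher and 1 lower. In the wound matrix and regeneration list 4 of 46 were higher and 0 lower, lepb among them. CCN1, a matricellular protein known as CYR61, was at 1.27, 0 and 2.4 and then 19.7, 20.2 and 19.6 FPKM, and ITGB4, the integrin of epidermal hemidesmosomes, at 1.23, 5.35 and 6.32 and then 60.9, 42.8 and 17.2 (adjusted p = 0.0256 and 0.0462). Of 28 collagens 0 passed in limma, 5 had an unadjusted p under 0.05, and voom called 2 lower (median -0.60). COL1A2 was at 241, 269 and 214 FPKM in the controls and 169.6, 123 and 95.7 at 3 h, apart but with an adjusted p of 0.136. PLEK2, CCN1 and ITGB4 each passed in 1 of the 6 fits that left out a library, without 3 h B, control C and 3 h C in that order, and CDC42EP3 in none.

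Of the 15 genes with the largest rise and the 15 with the largest fall, some belong to none of these groups. cbx7a, a chromobox protein of the Polycomb complex, rose from 3.94, 3.06 and 1.95 to 231, 174 and 115 FPKM (log2 difference 5.43 ± 0.54, adjusted p = 8.88e-05) and passed without each library. ANKRD22, an ankyrin repeat gene, was at 0, 0 and 15.3 and then 191, 65.3 and 50.4 FPKM (log2 difference 5.1 ± 1.12, adjusted p = 0.0304). On the side of the falls, ppdpfa, named for its role in pancreatic progenitors of zebrafish, had the smallest adjusted p of all named genes: 1561, 1864 and 1423 FPKM in the controls and 166, 108 and 179 at 3 h (log2 difference -3.44 ± 0.30, adjusted p = 2.39e-05). The defensin-like peptide gene defbl1, of the innate defence of the skin, fell from 28.1, 29.9 and 16.5 to 0.804, 0 and 0 FPKM (log2 difference -4.36 ± 0.87, adjusted p = 0.0204). TRAPPC4, a vesicle tethering subunit, was at 7.23, 8.46 and 18.5 FPKM and then 0, 0.0457 and 0.0428, and EXOSC4, of the RNA exosome, at 21.7, 16.1 and 26.6 and then 1.19, 2.14 and 0. The Wnt antagonist SFRP5 fell by 3.48, the cytochrome P450 gene cyp2y3 by 3.61 and the amino-terminal methyltransferase NTMT2 by 4.06 on the log2 scale, and the last was listed at 0 in each 3 h library (adjusted p = 0.0144, 0.0153 and 0.0225). Among these 9 genes cbx7a, ppdpfa and TRAPPC4 passed in all 6 fits that left out a library. EXOSC4 passed in none; ANKRD22, defbl1 and NTMT2 missed without control A or B or 3 h A or B, cyp2y3 without control A or 3 h A, and SFRP5 without control B or 3 h A.

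Further genes were chosen after their values were seen. F2RL2, a thrombin receptor of the protease-activated family summed over 2 IDs, was listed at 0 in the 3 controls and at 1.69, 10.7 and 3.76 FPKM at 3 h (log2 difference 2.41 ± 0.50, adjusted p = 0.0225). LIPG, endothelial lipase, rose from 1.59, 7.88 and 3.79 to 71.7, 30.1 and 36.0 FPKM (adjusted p = 0.0229), and CYP1A1, the target of the aryl hydrocarbon receptor, from 11.7, 12.6 and 10.3 to 542, 123 and 79.5 (log2 difference 3.81 ± 0.75, adjusted p = 0.0192). The activin-binding proteins FST and FSTL3 had control levels of 0.421, 0.469 and 0.669 and of 0.636, 0 and 0.749 FPKM and rose to 17.2, 12.7 and 4.79 and to 15.8, 13 and 14.5 (adjusted p = 0.0376 and 0.0423). The matrix proteoglycan decorin, DCN, fell from 60.1, 43.8 and 30.8 to 8.51, 11.95 and 8.61 FPKM (adjusted p = 0.0428). In all of these the groups were apart. Each missed the threshold without control A; F2RL2, CYP1A1, FST, FSTL3 and DCN did so also without control B or C, LIPG without control C, all but F2RL2 without 3 h A, F2RL2, FST, FSTL3 and DCN without 3 h B, and FSTL3 and DCN without 3 h C.

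**Figure D4:**
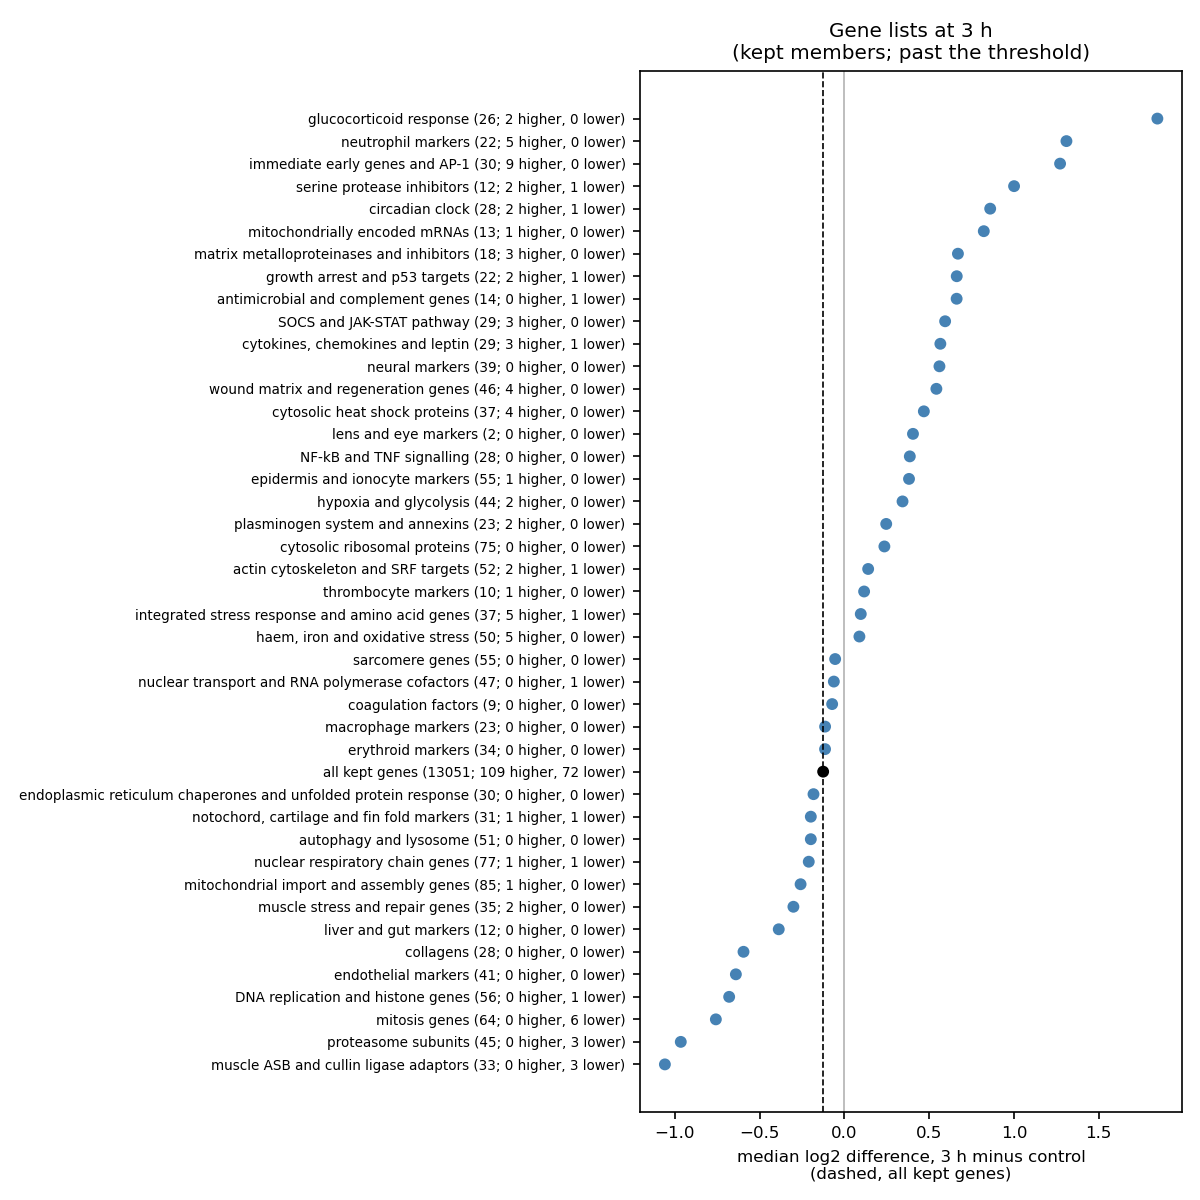
The x axis gives the median log2 difference, 3 h minus control, of the kept members of each list (y axis, with the number kept and the number past the threshold in each direction). The dashed line is the median of all kept genes, -0.13; the glucocorticoid response list lies farthest right at 1.85 and the muscle ASB list farthest left at -1.06.

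Cell type markers were uneven across libraries. Of 41 kept endothelial genes 0 passed in the limma fit reported, and 10 had an unadjusted p under 0.05. Of these endothelial genes voom, median ratio scaling and array quality weights each called 1 lower. Their median was -0.64, and the summed level was 169.8, 208 and 245 FPKM in the controls and 128, 65.1 and 98.6 at 3 h, without overlap. The adrenomedullin receptor calcrla was nearest, at 14.1, 24.0 and 14.4 FPKM in the controls and 4.5, 0 and 3.24 at 3 h (unadjusted p = 0.000748, adjusted p = 0.0525), followed by the junction protein ESAM, at 3.38, 5.08 and 5.37 and then 0, 0 and 0.543 (adjusted p = 0.0872). Erythroid genes gave 0 calls of 34 in limma or voom, with 2 at an unadjusted p under 0.05 (median -0.11, -0.43 without 3 h C), and their summed level overlapped, at 3011, 5364 and 3898 FPKM in the controls and 2163, 1302 and 5829.6 at 3 h. Macrophage markers gave 0 calls of 23 in the limma fit reported and 3 past an unadjusted threshold of 0.05. Voom called 1 higher, and the fit without 3 h C 1 lower. Their median was -0.11, but 0.16 with quantile normalization and 0.32 with voom. Macrophage markers summed to 166, 236 and 3222 FPKM in control A, B and C and 714, 326 and 156 at 3 h, so in this sum control C was far above all others. The mean log2 level of the macrophage list did not set it apart, at 0.05, -0.19 and 0.14 in control A, B and C. The thrombocyte list of 10 kept genes had 1 called higher, and the integrin ITGB3, summed over 2 IDs, was at 4.83, 2.52 and 1.99 FPKM in the controls and 27.0, 7.45 and 10.6 at 3 h (adjusted p = 0.248). Epidermis markers summed to 5714, 5554 and 7768 FPKM in the controls and 13723, 8449 and 2462 at 3 h, with 1 of 55 called higher, ITGB4, and a median of 0.38 that was -0.15 without 3 h library A. The share of epidermis markers called was 1.82%, near the 1.39% over all kept genes. Neural markers gave 0 calls of 39 in the limma fit reported, 2 past an unadjusted threshold of 0.05, and 1 each with voom, array quality weights or no filter. They summed to 115, 113 and 113 FPKM in the controls and 132, 124 and 252 at 3 h, so that library C had the highest value; their median of 0.56 was 0.01 without it. Liver and gut markers gave 0 calls of 12 in limma or voom, and 0 at an unadjusted p under 0.05, with mean levels of 0.90, 0.04 and -1.21 in 3 h A, B and C. In control A, B and C those levels were -0.74, -0.19 and 0.92, but the summed FPKM there was 1279, 1358 and 1099, lowest in C. In the notochord, cartilage and fin fold list 1 of 31 was higher and 1 lower: and2, which encodes the fin fold fibre protein actinodin 2, was at 5.76, 10.7 and 59.0 and then 272, 208 and 105 FPKM, and the cartilage factor SOX9, summed over 2 IDs, at 32.9, 18.4 and 12.6 and then 2.66, 3.94 and 0.0873 (adjusted p = 0.0428 and 0.0428). and2 missed the threshold without control A or B or 3 h A or B, and SOX9 without any library but 3 h B. The part of these tissues in the calls above was not tested beyond leaving out each library.

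**Figure D5:**
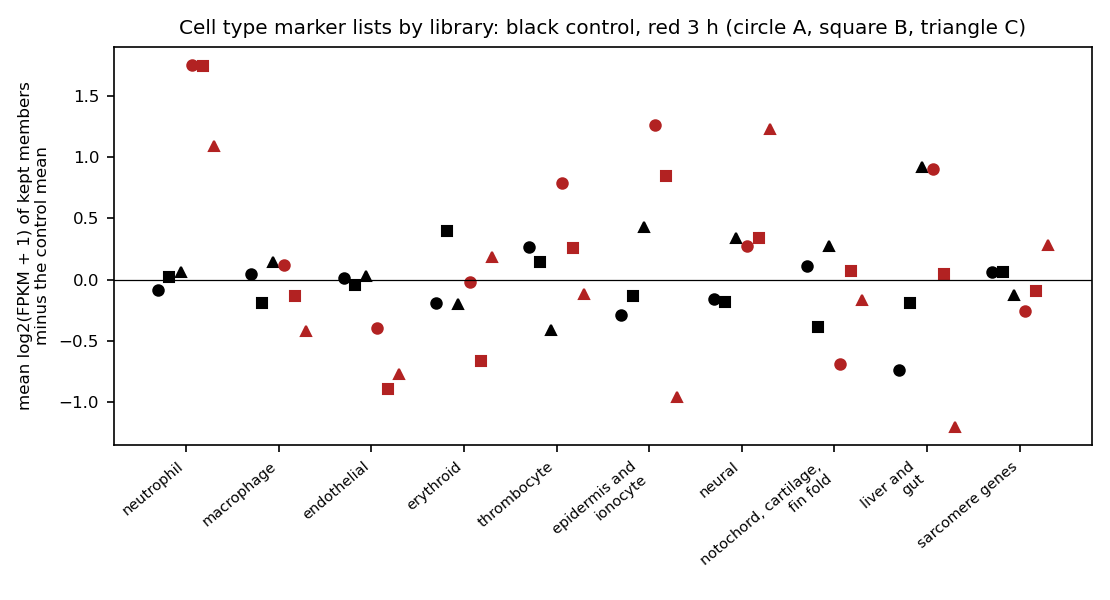
The y axis gives the mean log2(FPKM + 1) of the kept members of each marker list (x axis) minus the control mean, for 3 control libraries (black) and 3 libraries of 3 h (red). The 3 red neutrophil points lie above 1, the endothelial ones below 0, and the epidermis points of 3 h spread from -0.96 to 1.27.

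Set against the other times, the 3 h libraries gave the fewest calls against 1 h. Between 3 h and 1 h 32 genes passed (0.245%), 17 higher at 3 h (0.13%) and 15 lower (0.115%); between 3 h and 6 h 145 (1.11%), 78 higher (0.598%) and 67 lower (0.513%); and between 3 h and 12 h 355 (2.72%), 114 higher (0.873%) and 241 lower (1.85%). That last split was 32.1% higher and it was 58.9% with median ratio scaling and 65.8% with quantile normalization, so its direction over all genes depends on the scaling. The count against 1 h fell to 0 in a fit of those 6 libraries alone, with 905 at an unadjusted p under 0.05, and to 2 without the 12 h libraries or with array quality weights. lepb and MMP9 stood at 3 h above every other time. lepb was at 23.3, 11.6 and 0 FPKM in the 3 libraries of 1 h and 6.8, 0 and 0 in those of 6 h, and MMP9 at 10.15, 5.87 and 0 and 9.17, 1.84 and 3.97. Their 3 h levels differed from 1 h by 4.93 and 4.21 and from 6 h by 6.70 and 3.90 on the log2 scale (adjusted p = 0.0488, 0.041, 0.00596 and 0.0236). hspb9 was also higher at 3 h than at 1, 6 or 12 h, with 11.4, 14.9 and 19.2 FPKM at 1 h, and differences of 2.72, 3.75 and 3.67 (adjusted p = 0.0267, 0.00137 and 0.000581).

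For other genes that rose, the values by time were as follows. BHLHE40 was at 39.4, 56.6 and 21.96 FPKM at 1 h, 2.68, 6.46 and 0.472 at 6 h and 0.416, 1.35 and 0 at 12 h, and its 3 h level differed from 6 h by 2.82 and from 12 h by 4.02 (adjusted p = 0.0341 and 0.00281), while against 1 h the difference of -0.63 missed the threshold (adjusted p = 0.782). PRELID3B was at 303, 664 and 231 FPKM at 1 h and 56.9, 65.6 and 78.7 at 6 h (3 h minus 6 h 3.23, adjusted p = 0.000953). tcap was at 180.5, 825 and 415 FPKM at 1 h, 189, 281 and 119 at 6 h and 0, 11.3 and 6.22 at 12 h, with a difference of 3.08 from 6 h that missed the threshold (adjusted p = 0.0669) and of 8.47 from 12 h that passed (adjusted p = 3.53e-05); every 3 h library was above those of 1, 6 and 12 h. The mitosis genes KPNA2, CCNB1 and hmgb2b were lower at 3 h than at each other time. KPNA2 was at 11.03, 17.8 and 41.4 FPKM at 1 h, 40.8, 31.5 and 45.3 at 6 h and 89.2, 47.6 and 91.1 at 12 h, and each time differed from 3 h (-4.11, -5.01 and -5.91; adjusted p = 0.00458, 0.000276 and 2.42e-05). For the other two the difference had the same sign against 1, 6 and 12 h (CCNB1 lower by 3.02, 3.16 and 4.29, and hmgb2b by 1.95, 2.69 and 3.00, on the log2 scale). ppdpfa was already low at 1 h, at 256, 358 and 266 FPKM, and had 469, 816 and 1048 at 6 h and 1238, 889 and 1110.0 at 12 h. These comparisons share the 3 h libraries with the one against the control, so they are not independent of it.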

How the data were processed

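RNA was sequenced in 15 libraries, 5 groups of 3. The deposited values are FPKM per Ensembl gene ID, which the authors made with HISAT on GRCz11, StringTie and edgeR, per the submitters' processing notes; the sources used here give no versions. Of the deposited columns, 3 match no sample and were not used, and 1 column of 1 h was assigned to its group only. FPKM were whole multiples of 1 read for all 20690 IDs above 0 in at least 2 libraries, within 0.001 reads. For IDs above 0 in few libraries such a multiple can be found for almost any values, so the match is no check there. IDs with a common symbol were added up. Genes that reached 1 FPKM in 3 or more libraries, 13051 in all, went into the fit, and 1280 of these sum more than 1 ID, whose reads may be split or shared. log2(FPKM + 1), with a pseudocount of 1, went into limma 3.58.1, run in R 4.3.3 (eBayes with a trend) over all 15 libraries, two-sided, and 4 contrasts with 3 h were taken. The procedure was run on simulated data with independent libraries, where changes were planted only in genes with many reads. That run does not cover genes near 0 or libraries that share larvae.

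Named were the 15 highest and 15 lowest differences among called genes whose libraries do not overlap and whose symbol is not a clone name, all called members of 42 lists, and up to 2 members of lists with none. Of 2200 list names, 111 matched no symbol. The members and lists were chosen with earlier results of these data known. Some genes taken by this rule are left out of the text but not of the counts. Alternatives were another pseudocount, no filter, 2 scalings, array quality weights, smaller fits, a replicate block, the submitters' threshold, 1 value per gene ID, voom on recovered reads and leaving out each library. A level of 3 reads in a gene of 2000 bases is 0.0958 to 0.12 FPKM, which covers counting error only.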

Additional observations from a re-analysis of the deposited data

Results flagged for a closer look

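The changes from control at 3 h differ from those at another time where 3 h itself differs from that time, since the control cancels. This was tested in limma and held for 32 genes against 1 h, 145 against 6 h and 355 against 12 h. Groups of 3 libraries are too small for a test of single outlying libraries. Among the genes with the largest rises and falls at 3 h, the following log2 differences passed (adjusted p under 0.05). Against 1 h, 3 h was higher by 4.93 in lepb and 4.21 in MMP9. Against 1 h the difference was below 0 with -4.11 in KPNA2, -4.85 in NDUFAB1, -4.64 in defbl1, -3.02 in CCNB1 and -3.29 in TRAPPC4. Against 6 h, 3 h was higher by 6.70 in lepb, 3.90 in MMP9, 3.99 in FOSL1, 2.63 in HMOX1, 5.18 in ANKRD22, 4.82 in ATF3, 5.49 in SOCS1, 3.53 in ODC1 and 2.82 in BHLHE40. Against 6 h the difference was below 0 with -5.01 in KPNA2, -4.78 in NDUFAB1, -4.39 in MAD2L1, -3.21 in ASB15, -3.56 in APOBEC2, -3.16 in CCNB1, -3.45 in TRAPPC4, -3.37 in SFRP5 and -2.31 in ppdpfa. Against 12 h, 3 h was higher by 7.68 in lepb, 8.47 in tcap, 5.72 in MMP9, 5.53 in FOSL1, 4.50 in cbx7a, 5.92 in HMOX1, 3.91 in ATF3, 4.32 in SOCS1, 3.79 in ODC1, 4.02 in BHLHE40 and 4.63 in fthl31. Against 12 h the difference was below 0 with -4.25 in ccl27a, -5.91 in KPNA2, -4.48 in NDUFAB1, -5.55 in defbl1, -3.50 in cdkn1a, -3.56 in NTMT2, -4.82 in MAD2L1, -3.23 in APOBEC2, -4.29 in CCNB1, -4.15 in cyp2y3, -4.11 in TRAPPC4 and -2.85 in ppdpfa. Genes of that selection not listed against a time missed the threshold there.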

How the results depend on the processing

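Precision rests on 3 libraries a group, and the counts of calls moved with most choices, in the order 3 h against control, 1 h, 6 h and 12 h. They were 181, 32, 145 and 355 as reported. Without a filter on low values they were 94, 18, 69 and 230, and in fits of only the groups compared 30, 0, 7 and 36. With voom on recovered reads they were 328, 77, 194 and 392, and with array quality weights 324, 2, 285 and 269. Under the submitters' threshold they were 1750, 1419, 1854 and 2443. That threshold takes an unadjusted p under 0.05 with a log2 difference beyond 1 in either direction, so it is not corrected for multiple tests. Median ratio scaling gave 66 against 1 h, and a fit without the 12 h libraries gave 2. Leaving out each library gave 46 to 209 against control, 7 to 88 against 1 h, 40 to 239 against 6 h and 126 to 271 against 12 h; without the 1 h column that matches no title the count was 54. The share of higher calls in the control comparison was 51.3% with a pseudocount of 0.1 and 54.0% with voom, where the median of all genes was -0.25 and -0.29.

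The letters in the titles do not say what libraries share, and same-letter deviations of 3 h and control libraries correlated at -0.109, -0.0183 and -0.136 for A, B and C. With a replicate block the counts were 170, 19, 152 and 324. The cause of these moves was not tested. edgeR's quasi-likelihood test was not run, since the deposited unit is FPKM, and promoter motifs were not analysed here.

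With a pseudocount of 0.1 the median log2 difference of a list moved to 2.31 for immediate early genes and AP-1, 1.13 for SOCS and JAK-STAT pathway, 0.423 for coagulation factors, -0.415 for endoplasmic reticulum chaperones and unfolded protein response, 2.37 for glucocorticoid response, 1.32 for circadian clock, -0.522 for muscle stress and repair genes, -1.64 for muscle ASB and cullin ligase adaptors, -1.95 for mitosis genes, -1.17 for DNA replication and histone genes, -1.21 for endothelial markers, 1.24 for antimicrobial and complement genes and 1.52 for neural markers. With voom on recovered reads it moved to 2.46 for immediate early genes and AP-1, 1.34 for SOCS and JAK-STAT pathway, 1.18 for cytokines and chemokines with leptin, 1.48 for NF-kB and TNF signalling, 1.3 for matrix metalloproteinases and inhibitors, 0.386 for coagulation factors, 2.47 for glucocorticoid response, 1.7 for circadian clock, -0.549 for muscle stress and repair genes, -1.87 for muscle ASB and cullin ligase adaptors, -2.53 for mitosis genes, -1.48 for DNA replication and histone genes, 0.861 for wound matrix and regeneration genes, 1.95 for neutrophil markers, 0.321 for macrophage markers, -1.66 for endothelial markers, 1.54 for antimicrobial and complement genes and 2.17 for neural markers. With quantile normalization it moved to 0.197 for coagulation factors, 0.183 for integrated stress response and amino acid genes, -0.829 for muscle ASB and cullin ligase adaptors and 0.157 for macrophage markers. With array quality weights it moved to 0.222 for coagulation factors. Leaving out each library in turn gave medians that ran from 0.308 to 1.29 for cytokines and chemokines with leptin, from 0.584 to 1.69 for serine protease inhibitors, from -0.19 to 0.521 for coagulation factors, from -0.435 to 0.647 for thrombocyte markers, from -0.0407 to 0.45 for integrated stress response and amino acid genes, from 0.258 to 0.545 for hypoxia and glycolysis, from -0.422 to -0.0589 for muscle stress and repair genes, from -1.12 to -0.726 for muscle ASB and cullin ligase adaptors, from -1.04 to -0.712 for mitosis genes, from -0.139 to 0.166 for macrophage markers and from 0.0116 to 0.839 for neural markers. Of the named genes, CRYBA1, not called, turned from 0.19 to -0.16 without 3 h replicate C and ranged up to 0.37 over the libraries left out. The genes kdrl and cdh5, neither called, ranged from -0.474 to 0.442 and from -0.198 to 0.853. Of the called genes chosen for naming, none turned its direction in a setting where it was compared. Where groups do not overlap, leaving out a library cannot turn the sign, so for such genes this is no check.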

Other observations

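Groups not described above gave 0 or 1 call each in the fit reported, where 1.39% of all kept genes were called. Cytosolic ribosomal protein genes gave 0 calls of 75 in limma or voom, 3 at an unadjusted p under 0.05, and a median of 0.24 with 62 positive. That was 82.7% positive, against 43.8% over all kept genes. RPL13A was at 30.8, 32.4 and 41.4 FPKM in the controls and 85.8, 49.8 and 65.9 at 3 h, and its groups were apart (adjusted p = 0.238). Autophagy and lysosome genes gave 0 calls of 51 in the limma fit reported, 7 past an unadjusted threshold of 0.05, and 1 each with voom or array quality weights. Without 3 h C 1 was called higher and 1 lower. The cathepsin ctsla was at 144, 138 and 175.7 and then 613, 409.8 and 324 FPKM, and SQSTM1, the autophagy receptor p62, at 13.2, 4.05 and 17.8 and then 132, 48.8 and 20.7, both apart (adjusted p = 0.102 and 0.122). Of 47 nuclear transport genes KPNA2 was the only call, and of 14 antimicrobial and complement genes defbl1. The lens list kept 2 genes, with 0 calls and 0 at an unadjusted p under 0.05.

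The following genes were chosen after their values were seen. arpp21, a cyclic AMP-regulated phosphoprotein gene, rose from 1.16, 0.715 and 0.698 to 44.3, 24.5 and 40.3 FPKM and was still at 33.7, 21.7 and 13.5 at 6 h (3 h minus 6 h 0.69, adjusted p = 0.676), and against control it passed without each library in turn. The BMP-pathway gene smad9 rose from 2.09, 2.71 and 4.17 to 46.8, 22.2 and 16.6 FPKM, the leucine zipper gene batf2 from 0 in each control to 31.2, 18.1 and 1.33, and the proteoglycan sdc4 from 35.8, 40.22 and 35.8 to 284, 144 and 191 (adjusted p = 0.0204, 0.0292 and 0.0194). GCH1, the first enzyme of tetrahydrobiopterin synthesis, rose from 0.127, 0.222 and 1.23 to 17.4, 10.4 and 9.03 FPKM (adjusted p = 0.0118). Groups were apart in all 5. Without control A or B or 3 h A, smad9, batf2, sdc4 and GCH1 missed the threshold, batf2 and sdc4 also without control C and batf2 without 3 h B. The most abundant called feature was ENSDARG00000080337, which the tables used here do not name, at 38638, 39672 and 61744 FPKM in the controls and 90760.0, 95063 and 87028 at 3 h (log2 difference 1.0 ± 0.23, adjusted p = 0.0373). It passed without control C, and missed without the other 5 libraries.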
